A study of Caenorhabditis elegans with 2 samples.

Results

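Autosomal intronic peaks are the JUN-1 binding sites of chromosomes I to V that lay inside protein-coding genes but away from exons and gene starts. A peak was counted when its summit fell inside an Ensembl WBcel235 protein-coding gene, in none of its exons, and in no window from 1000 bp upstream to 200 bp downstream of a protein-coding gene start. The rule used positions and no signal. It took 335 of the 2305 peaks of the authors' IDR-thresholded list (14.5%, Wilson 95% interval 13.2% to 16.0%), or 335 of 1855 autosomal peaks (18.1%). The irreproducible discovery rate procedure (IDR) retains peaks that rank alike in replicates.

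The data are chromatin immunoprecipitation followed by sequencing from whole L1 larvae of Caenorhabditis elegans, strain OP234, which carries unc-119(ed3) III and the insertion wgIs234 with eGFP-tagged jun-1. The 2 biological replicates, from separate biosamples of pooled male and female larvae, form 1 group. The labels describe both as ChIP-seq against eGFP-jun-1, and their antibody entry reads jun-1. All measured animals therefore shared the mutation and the tagged transgene, and no untagged or treated group is analysed here. Whole animals mix all cell types, so binding in few cells and weak binding in many cannot be told apart.

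Jun proteins are basic leucine zipper (bZIP) transcription factors that bind DNA as dimers, classically at the AP-1 element and at the related CRE. Introns can hold enhancers, promoters of shorter transcripts and genes for small RNAs, and in the compact worm genome most introns are short. Many snoRNA and some tRNA genes of worms lie inside introns of coding genes, and tRNA genes carry their promoter inside the transcribed sequence.

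The sequences below are the 200 bp windows at the summits of 3 of the strongest sites. They were taken by signal among the members whose sequences could be shown, and not for the elements they carry. The limits on which sequences are shown are given with the data processing. Letters come from the RefSeq copy of WBcel235, plus strand, 5′ to 3′. Capitals mark an AP-1 element (TGACTCA or TGAGTCA), the 9-base element CTGCGTCTC, a recurrent worm promoter element, or the GA repeat GAGAGAGA, each on either strand. The windows are chrIII:12612553-12612752 in Y111B2A.12, chrII:5336975-5337174 in vhp-1 and chrIII:1925261-1925460 in pqn-41.
Y111B2A.12: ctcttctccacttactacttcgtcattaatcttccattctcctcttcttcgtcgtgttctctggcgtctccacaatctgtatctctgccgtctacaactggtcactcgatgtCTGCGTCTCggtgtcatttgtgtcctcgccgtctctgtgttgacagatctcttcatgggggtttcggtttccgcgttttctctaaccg
vhp-1: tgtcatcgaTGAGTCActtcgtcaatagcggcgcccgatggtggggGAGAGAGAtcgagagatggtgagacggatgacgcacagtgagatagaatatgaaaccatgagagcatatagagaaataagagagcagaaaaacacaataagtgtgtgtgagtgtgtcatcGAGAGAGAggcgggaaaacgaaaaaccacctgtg
pqn-41: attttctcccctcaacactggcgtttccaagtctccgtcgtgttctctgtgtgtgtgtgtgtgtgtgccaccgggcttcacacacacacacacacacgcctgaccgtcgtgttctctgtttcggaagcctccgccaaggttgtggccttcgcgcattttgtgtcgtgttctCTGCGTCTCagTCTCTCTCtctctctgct

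The next set shows 4 AP-1 elements with 25 bases to each side, plus strand, from 4 members that carry one beside vhp-1, with signals of 132 (rme-1), 72.2 (nova-1), 53.2 (pqn-42) and 42.8 (epg-6, near the members' median). They lie at chrV:6214068-6214124 (rme-1), chrV:18079268-18079324 (nova-1), chrII:2454970-2455026 (pqn-42) and chrIII:10599917-10599973 (epg-6). Capitals mark the AP-1 element.
rme-1: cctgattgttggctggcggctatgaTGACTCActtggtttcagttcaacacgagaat
nova-1: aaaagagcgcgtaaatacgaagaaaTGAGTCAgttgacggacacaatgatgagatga
pqn-42: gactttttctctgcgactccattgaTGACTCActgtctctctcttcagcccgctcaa
epg-6: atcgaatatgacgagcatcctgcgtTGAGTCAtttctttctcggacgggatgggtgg

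The last set shows 2 elements that more members held than the AP-1 element, again plus strand with the element in capitals. CTGCGTCTC is shown at chrIV:2602123-2602181 (epg-9) and chrIII:8802083-8802141 (zfp-1). The GA repeat is shown at chrV:6224681-6224738 (W06H8.6) and chrII:10549075-10549132 (mnk-1).
epg-9: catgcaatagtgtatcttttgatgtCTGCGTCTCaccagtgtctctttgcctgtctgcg
zfp-1: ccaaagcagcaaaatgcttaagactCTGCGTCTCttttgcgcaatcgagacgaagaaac
W06H8.6: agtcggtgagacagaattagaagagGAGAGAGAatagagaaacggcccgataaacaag
mnk-1: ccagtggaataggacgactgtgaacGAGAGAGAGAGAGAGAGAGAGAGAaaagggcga

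The signal of a peak is the authors' own value, on a scale that no source used here states, and it is compared only within a list. Members ranged from 28.5 to 301 with a median of 42.3 (quartiles 33.6 and 62.9) in the IDR-thresholded list. Of the 335 members, 208 lay under 50 and 29 at 100 or above, and 11 were among the first 100 peaks of the list. Of all 2305 peaks, 1343 lay under 50 and 267 at 100 or above, with a median of 44.7. Low values were thus common to most of the list. In all, 331 members were 344 bp wide, and the 4 others, with signals of 177 to 301, were narrower.

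Both replicates held nearly all members. A peak of each replicate list overlapped 333 of the 335, and the exceptions, in T26A8.4 and psd-1, had no overlapping peak in the replicate 2 list. The replicate lists also hold background peaks (28101 and 30000 entries), so overlap by their strongest peaks asks more. Of the members, 231 (69.0%, Wilson interval 63.8% to 73.7%) were overlapped by the strongest 2305 of both lists, near the background of 70.2% over all IDR-thresholded peaks. Both replicates entered the making of the IDR-thresholded list, so these counts are not independent of that choice.

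In the replicate 1 list the members' signals ranged from 7.58 to 174 with a median of 26.1, and in the replicate 2 list from 3.40 to 138 with a median of 18.5. Replicate 1 had the higher value at 261 of the 333, with a median ratio of 1.31, and 267 lay within 2-fold. The log2 ratio of replicate 1 to replicate 2 had a mean of 0.45 and an SD of 0.69 over these peaks. Across them the signals had a Spearman rho of 0.546, a description over 333 sites that share the 2 libraries, the control alignment and the selection of the list. The sites that differed most were mainly weak ones. In nhr-34, a nuclear hormone receptor gene, 1 site had 26.4 in replicate 1 and 3.40 in replicate 2, while in catp-7 the order turned, with 7.81 and 26.4. Stronger sites differed too. A let-526 site with a signal of 47.6, above the members' median, had 13.7 and 34.9, and cye-1 (73.3) had 20.0 and 46.5. In 4 places 2 neighbouring members overlapped each other (gsa-1, pbrm-1, ubq-1 and zfp-1), and 8 members shared their replicate peak with another member in each list.

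**Figure D1:**
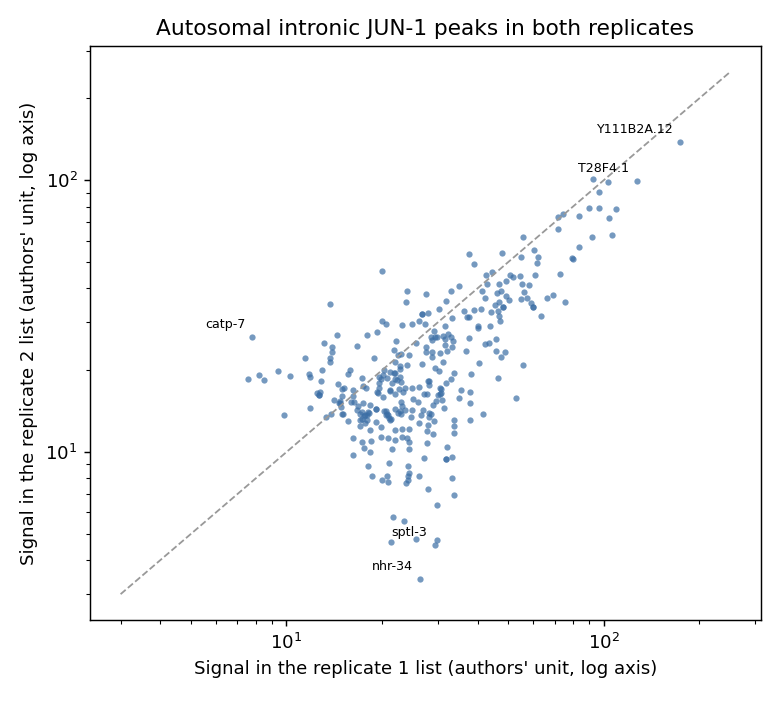
Signal of each of the 333 members in the replicate 1 list (x axis) and in the replicate 2 list (y axis), both on log axes in the authors' unit, with a dashed line where they are equal. Strong sites such as Y111B2A.12 (174 and 138) lie near the line, and the widest departures are mainly weak sites, such as nhr-34 (26.4 and 3.40).

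The strongest site lay in intron 4 of 7 of Y111B2A.12 (III:12612559-12612758), 3364 bp from the gene start, with a signal of 301, and with 174 in replicate 1 and 138 in replicate 2. It ranked at 20 in the IDR-thresholded list, and at 21 and 16 in the replicate lists. The next, in T28F4.1, had 223 with 127 and 99.1 in the replicates. Both genes carry names of their sequence only. Y111B2A.12 also had a promoter peak, of signal 173, weaker than the intronic one.

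A site in vhp-1, whose product is a phosphatase of stress-activated MAP kinases, lay 13799 bp from the gene start and had 194 with 103 and 98.2 in the replicates. Sites in pqn-41, which codes for a glutamine-rich protein involved in the death of the linker cell, had 190, 177, 167 and 122. zfp-1, the worm counterpart of the chromatin protein AF10, had its strongest sites at 186 and 168. The replicates gave these hosts' strongest sites similar values, 92.4 and 101 for pqn-41 and 96.5 and 90.6 for zfp-1.

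The autophagy gene epg-9 followed with 181 (109 and 78.2), the dynein heavy chain gene dhc-4 with 179 (104 and 72.4), drap-1 with 154 and mnk-1, a kinase of the MAP kinase cascade, with 152. Then came the bZIP gene zip-2 (147), the nuclear hormone receptor gene nhr-19 (146), T24B8.3 (140), W06H8.6 (137), Y43F8B.2 (133) and rme-1, an endocytic recycling gene (132). The remaining sites of the first 25 had signals of 108 to 118. They lay in mpk-1, the worm ERK kinase, T13B5.9, K11D2.4, spop-1, scc-2, which loads cohesin, and unc-108, the worm Rab2. Of these 25, the lowest value in replicate 1 was that of mpk-1 (55.6, with 61.6 in replicate 2) and the lowest in replicate 2 that of scc-2 (35.6, with 75.2 in replicate 1). The weakest members, in pmt-1 (28.7), mfb-1 (28.5) and C06B8.7 (28.5), lay at the lower end of the whole list, which begins at 28.4.

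The members lay in 260 host genes, which are 1.73% of the 15059 autosomal protein-coding genes with any intronic sequence that the rule admits. Long genes hosted more. The share was 0.252% of genes with up to 1000 bp of such sequence, 1.81% of those with 1001 to 3000 bp, 5.80% of those with 3001 to 10000 bp and 16.1% of those with more. Hosts had a median length of 7789 bp against 2222 bp for all these genes, so a host share is read beside the intronic length. Per Mb of admitted sequence, chromosome III held 16.6 members, II 14.5, IV 13.4, I 11.1 and V 11.0. The central 50% of the chromosomes held 62.1% of members and 42.7% of the admitted sequence.

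Most hosts (217) held 1 member, 27 held 2, 7 held 3, 5 held 4 and 4 held 6, and 1 summit lay in a pair of overlapping genes. The 43 hosts with more than 1 member together held 119, spaced by a median of 1762 bp within a gene (range 199 to 17720 bp). In zfp-1 the 6 signals were 186, 168, 86.8, 77.8, 59.7 and 59.0, the highest sum of the hosts with 6 (638). Its members of 77.8 and 59.7 overlapped and shared the same replicate peaks (48.1 and 34.2), so they may count 1 place more than once. All of its sites lay in introns 4 and 9 of 13, and it had no promoter peak.

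The 6 sites of vhp-1 had signals of 194, 85.6, 73.2, 49.5, 45.6 and 30.9, spread from 3172 to 15266 bp behind the gene start, and its promoter peak, at 28.6, was weaker than each. Replicate 1 exceeded replicate 2 at all but the weakest of them, where the values were 11.9 and 18.8. In ppfr-1, a gene of a protein phosphatase 4 regulator, the range was 34.5 to 104, and in T28B11.1 it was 34.6 to 90.6, all of them in 1 intron of 17091 bp. The 4 sites of pqn-41, in 1 intron of 10372 bp, had a higher sum (656) than any host with 6.

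**Figure D2:**
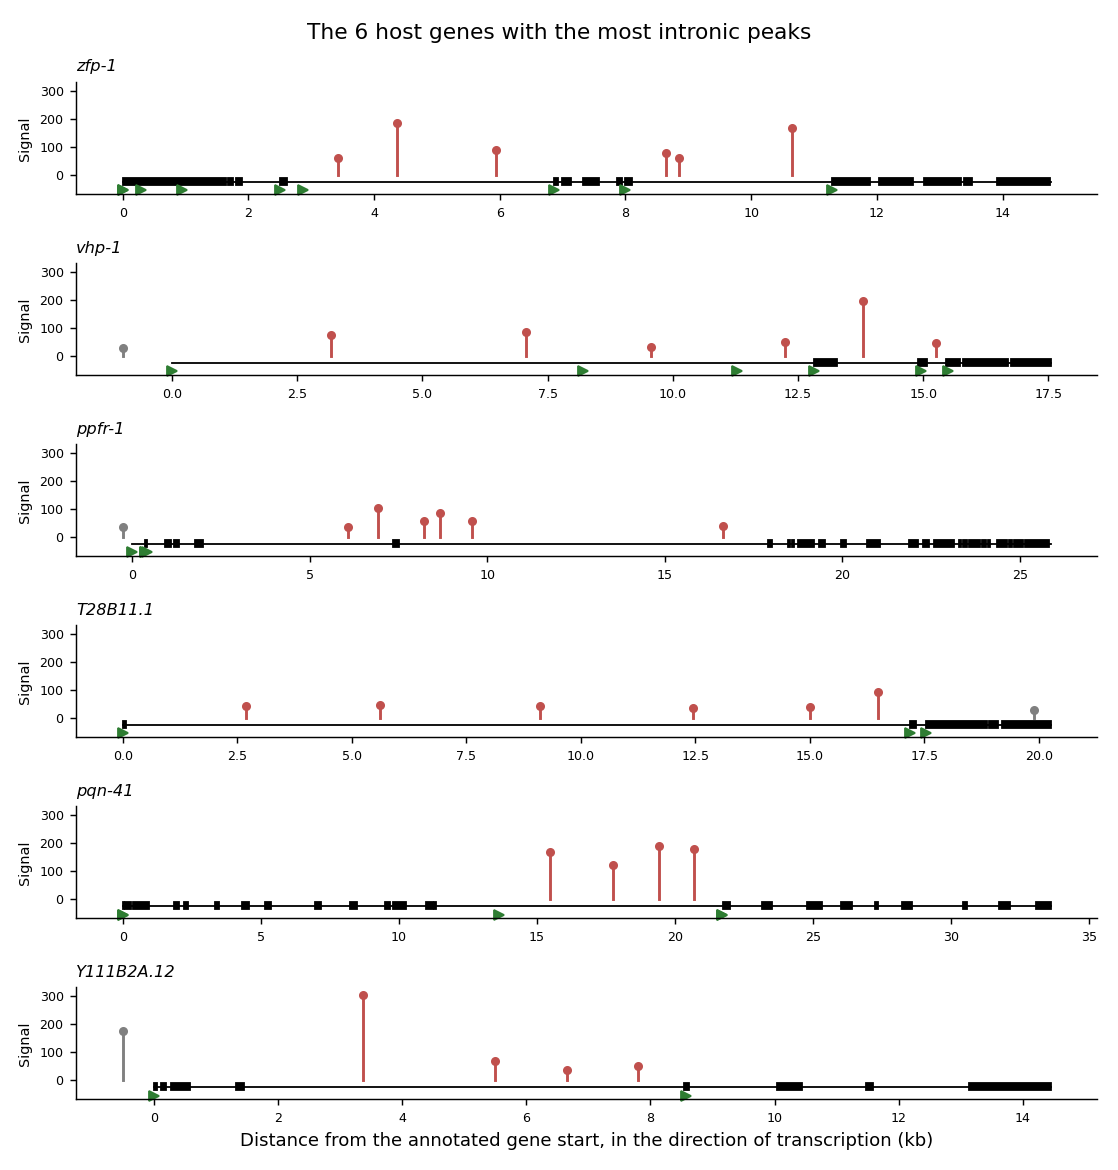
Maps of 6 hosts with several members, with the distance from the gene start in kb on the x axis and the signal on the y axis; black boxes are exons of the transcript with the most exonic sequence, green triangles starts of coding transcripts, red stems members and grey stems other summits. The members of pqn-41 stand in 1 long intron at 122 to 190, while those of vhp-1 are spread over the gene.

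A promoter peak as well was present in 41 of the 260 hosts (15.8%, Wilson interval 11.8% to 20.7%), against 7.88% of the 15059 genes. In 23 of the 41 the promoter peak was the stronger one. The share was largest among hosts with little intronic sequence, 30.4% (7 of 23) in the shortest of the 4 length classes and 9.38% (6 of 64) in the longest. Over all genes of these 2 classes the shares were 7.79% and 8.54%. The counts of hosts behind the class shares are small. The difference between hosts and other genes was not tested.

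Among gene groups, the bZIP factors, the family of JUN-1, had 6 hosts of 26 genes (23.1%), with 9 members of median signal 69.7. They were zip-2 (147), zip-5 (94.0 and 31.9), zip-1 (72.2), the oxidative stress factor skn-1 (71.1 and 47.9), let-607 (69.7) and the CREB-type gene crh-2 (46.3 and 42.4). The weaker zip-5 site differed most between the replicates, with 21.3 and 4.65. These genes had a median of 2454 bp of admitted intron, more than the 695 bp of all 15059, of which 1.73% were hosts.

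The list of stress and MAP kinase genes had 8 hosts of 46 (17.4%) with 15 members of median signal 45.6. Beside vhp-1, mnk-1 (152 and 103) and mpk-1 (118) these were mpk-2 (39.3), the MAP kinase kinase kinase gene dlk-1 (37.7), lit-1, a Nemo-like kinase (44.5 and 29.2), max-2 (32.9) and tir-1, upstream of the p38 pathway (31.9). The insulin and TOR list had 4 of 34 (11.8%), namely daf-16, the FOXO factor (84.7), let-363, the TOR kinase (67.3), hlh-30, the TFEB counterpart (64.5), and daf-2, the insulin receptor. In these lists the median admitted lengths were 3487 and 1761 bp, so both comprise genes with longer introns than most. Among all genes, hosts made up 5.80% of those with 3001 to 10000 bp and 1.81% of those with 1001 to 3000 bp. Of 29 Wnt pathway genes, lit-1 was the host.

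Other developmental transcription factors had 8 hosts of 95 (8.42%), among them mef-2 (88.5), daf-14 (85.7), daf-16 and hlh-30, and guidance and adhesion genes had 6 of 71 (8.45%), led by pxn-1 (96.3) and the cadherin gene hmr-1 (56.1). Nuclear hormone receptors had 6 of 243 (2.47%), led by nhr-19 and nhr-46 (82.1), ion channels and transmitter receptors 5 of 215 (2.33%), led by twk-5 (53.0) and osm-9 (48.6), and muscle structure genes 2 of 48, unc-94 (30.1) and unc-70 (29.6). Splicing regulators had 2 of 41, nova-1 (72.2) and asd-2 (32.2). No host was among 67 homeodomain genes, which allows a share of up to 4.48% (3 counts of the total), and their median admitted length was 1626 bp. None was among 37 ribosomal protein genes (up to 8.11%), whose introns give a median of 55 bp. The guidance list had the longest admitted introns, with a median of 4831 bp, and a lower share of hosts than the kinase list. The medians were 748 bp for nuclear hormone receptors and 2266 bp for ion channels and transmitter receptors. Of all 15059 genes 1.73% were hosts, with 1.81% at 1001 to 3000 bp and 5.80% at 3001 to 10000 bp. The shares of the nuclear receptor and ion channel lists lay near the share of all genes. These lists share genes, and differences between them were not tested. Several of the hosts had their site at, or within 200 bp of, a small RNA gene. These were snoRNA genes for twk-5, inx-11, pxn-1, unc-70 and mpk-2, tRNA genes for osm-9 and unc-33, and an snRNA gene for glr-2. The shares by list count such sites too.

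Within their genes the members lay in long introns. An intron of the transcript with the most exonic sequence held 288 of the 335, and the intron with the member had a median length of 1775 bp, against 950 bp at points set every 200 bp over the admitted sequence. The median of all 85417 autosomal introns was 65 bp. The first intron held 87 members (26.0%, Wilson interval 21.6% to 30.9%) and 20.4% of the points. Counting the first intron of any transcript, the shares were 52.2% and 31.6%. Along the intron the median position was 54.3% of its length, and from the gene start the median distance was 3861 bp (210 to 40157 bp). The farthest was in herc-1 (signal 55.3, with 20.0 and 30.5 in the replicates).

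The 47 members (14.0%) outside the introns of that transcript, against 4.37% of points, include 4 sites of vhp-1, where other transcripts reach further upstream. A later start of a coding transcript of the host, with the summit 1000 bp upstream to 200 bp downstream of it, was found for 107 members (31.9%, Wilson interval 27.2% to 37.1%) and for 10.9% of points. The summit was upstream of that start in 105 of the 107, at a median distance of 261 bp over all 107, while 90.8% of such points were upstream, at a median of 394 bp. The strongest of these were the zfp-1 site of 168 (635 bp upstream), drap-1 (144 bp), zip-2 (240 bp), T24B8.3 (429 bp) and rme-1 (645 bp). The median signal of the 107 was 41.5, and that of the other members 42.3. Worm messages are often trans-spliced, so an annotated start need not be where transcription begins.

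Annotated genes of non-coding RNA classes lay at, or within 200 bp of, 102 summits (30.4%, Wilson interval 25.8% to 35.6%) and 7.97% of points. snoRNA genes, whose products guide RNA modification, were at 28 members (8.36%) and 0.214% of points, and tRNA genes at 26 (7.76%) and 0.216%. Genes that the annotation labels with the class ncRNA were at 74 (22.1%) and 3.05%. Some summits lay at genes of several classes, so the class counts overlap. piRNA genes were rarer at members (2, or 0.597%) than at points (3.68%). The annotation names 2 miRNA and 3 snRNA genes at members.

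Signal and replicate overlap are given here by class of RNA gene. The 28 members at snoRNA genes had a median signal of 49.0 (29.1 to 96.3) and 71.4% were overlapped by the strongest peaks of both replicates. The 26 at tRNA genes had a median of 40.0 (28.5 to 104) and a share of 50%, lower than the 70.2% of all peaks. Their introns were short, with medians of 350 bp and 321 bp. The summit lay a median of 13.5 bp upstream of the tRNA start over 28 pairs of summit and gene, inside the gene in 11, and 32 bp upstream of the snoRNA start over 29 pairs, inside it in 7. The RNA gene had the strand of its host in 16 of the 28 tRNA pairs and 20 of the 29 snoRNA pairs.

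The strongest member at an RNA gene was T28F4.1 (223, near the ncRNA gene T28F4.7), followed by dhc-4, whose summit lay 43 bp upstream of the snRNA gene R07E5.16 in an intron of 360 bp. drap-1 (F40F9.14 and F40F9.15), W06H8.6 (W06H8.16) and rme-1 (W06H8.15) came next. At tRNA genes rsa-2 was highest (104, with 47.7 and 54.0), between a pair of tRNA genes on opposite strands, and at snoRNA genes pxn-1 (96.3, 11 bp upstream of ZK994.7) and frm-7 (90.5). Neither a later start nor an RNA gene was found for 146 members (43.6%), against 82.0% of points, and both for 20. Those 146 had a median signal of 41.5 and include Y111B2A.12, the strongest vhp-1 site and all pqn-41 sites.

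**Figure D3:**
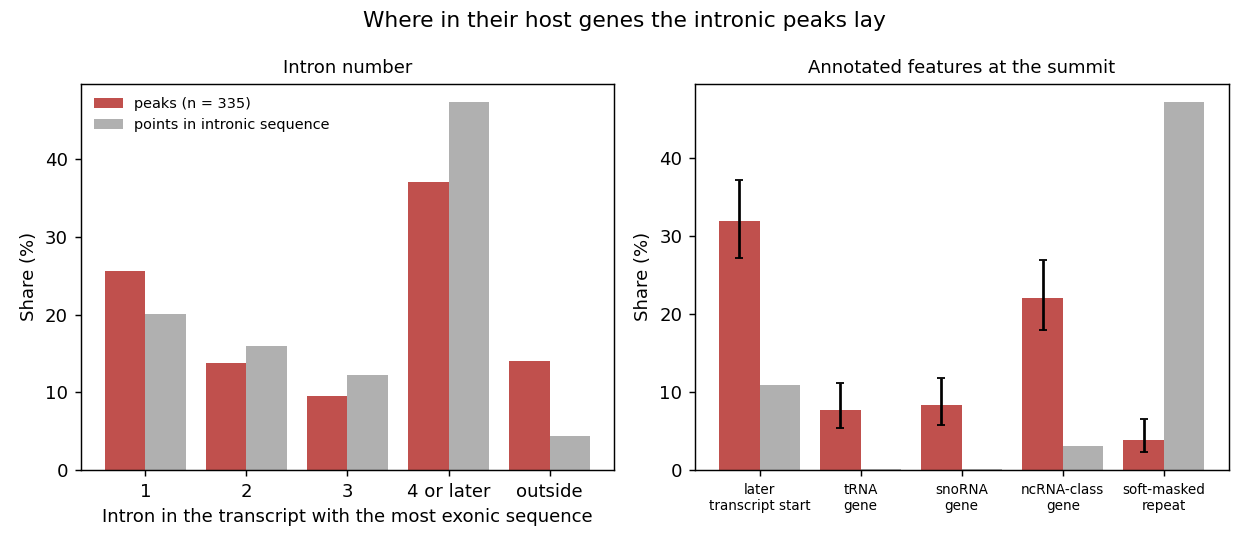
Percent (y axes) of the 335 members in red and of 126731 points set every 200 bp over the admitted intronic sequence in grey, by intron of the host in the left panel and by feature near the summit in the right one, where bars carry Wilson intervals. Members exceed the points at later transcript starts (31.9% against 10.9%) and at tRNA, snoRNA and ncRNA-class genes, and fall short of them in soft-masked repeats (3.88% against 47.1%).

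The elements were searched for, on either strand, in 200 bp at each summit. CTGCGTCTC was in 63 members (18.8%, Wilson interval 15.0% to 23.3%), 1.04% of the windows at the grid points and 0.746% of the windows centred 500 bp to each side of the members. GAGAGAGA was in 67 (20.0%, interval 16.1% to 24.6%), 1.27% and 2.24%. The E-box CACGTG was in 10.7%, 2.99% and 4.18%. One or both of CTGCGTCTC and GAGAGAGA were in 112 members and both in 18, as in the pqn-41 window printed above, so 223 members held neither.

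The AP-1 element was in 14 members (4.18%, interval 2.51% to 6.89%), 1.44% of grid windows and 2.39% of flanking windows. TGACGTCA, the CRE, was in 4 (1.19%), 1.41% and 2.09%. The 18 members with either had a median signal of 36.6, against 42.4 for the other 317. Of the 18, 9 (50%) were overlapped by the strongest peaks of both replicates, against 70.0% of the other 317 and 70.2% of all peaks. The 18 were led by vhp-1 (194), rme-1 (132), mef-2 (88.5, a CRE), hrpk-1 (79.6, a CRE) and nova-1 (72.2). The vhp-1 element lay in the 200 bp window but outside the peak itself, which was 86 bp wide. AP-1 elements lay a median of 52 bp from the summit, and CTGCGTCTC a median of 35.5 bp. Members with CTGCGTCTC had a median signal of 54.0 and those with GAGAGAGA 47.9. The strongest with CTGCGTCTC were Y111B2A.12, pqn-41 (190 and 177), epg-9 with 2 copies and zfp-1 (168), and those with GAGAGAGA were vhp-1, pqn-41 (190 and 177), W06H8.6 and K11D2.4 (112), followed by mnk-1 (103).

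The elements also differed by position. CTGCGTCTC was in 1 of 26 members at tRNA genes, 1 of 28 at snoRNA genes and 8 of 48 (16.7%) at other RNA genes, in 24.1% of the 87 at a later start with no RNA gene and in 21.9% of the 146 with neither. GAGAGAGA was in 2 of 26, 2 of 28, 9 of 48 (18.8%), 18.4% and 26.0%. The other motifs searched were TGTTTAC (3.58% of members against 1.88% of grid windows), TGATAA (22.7% against 16.2%) and CCAAT (26.6% against 34.7%). Members were richer in G and C, with a median of 47% against 33.5% of the bases in a window, and 13 of 335 windows (3.88%) against 47.1% of grid windows were soft-masked as repeats over 50% or more of their bases. These differences accompany every motif share and their part in it was not tested. Among grid windows under that masking limit the shares were 1.05% for CTGCGTCTC, 2.02% for GAGAGAGA and 1.93% for the AP-1 element. A match describes letters and shows no binding of a factor.

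**Figure D4:**
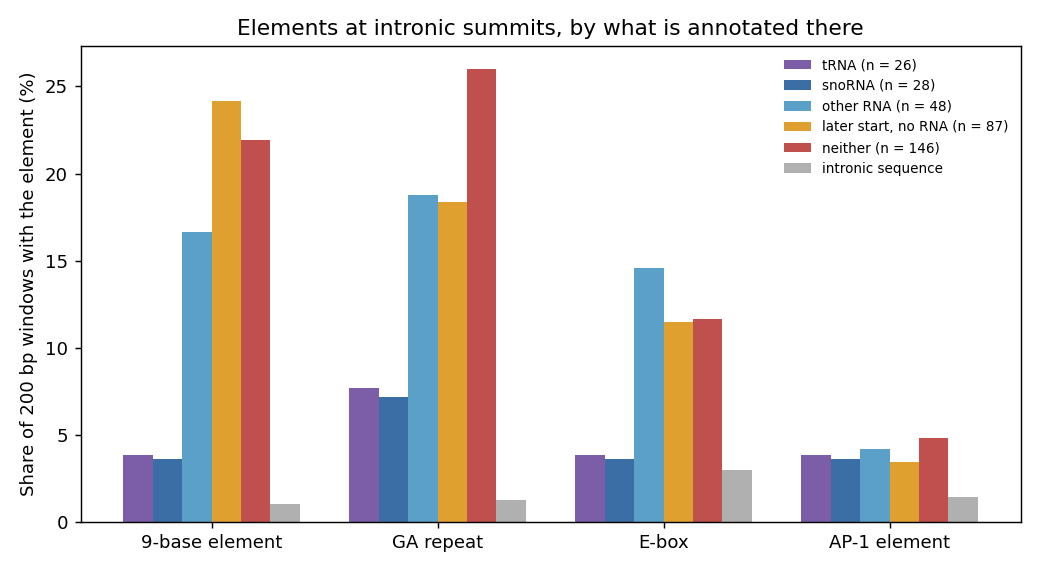
Percent of 200 bp windows that hold each of 4 elements (y axis), for members split by what is annotated at the summit (colours) and for grid points in the admitted introns (grey); the 9-base element is CTGCGTCTC and the GA repeat GAGAGAGA. Both elements are less common in members at tRNA and snoRNA genes than in other members. Those shares rest on 1 or 2 members each and lie above the grey bars. The elements are commonest in members at later starts (24.1% for the 9-base element) or with neither feature (26.0% for the GA repeat).

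Set beside the other classes, the median signal of members in the IDR-thresholded list lay between those of promoter and intergenic peaks. The medians were 42.3 for members, 46.9 for 1066 promoter peaks, 41.2 for 400 intergenic peaks, 40.6 for 54 exonic peaks and 42.0 for 79 intronic peaks on X, so the members' median minus that of the promoter class was -4.64, and minus that of the intergenic class 1.13. In the replicate 1 list the medians were 26.1 for members, 27.9 for promoter and 24.2 for intergenic peaks, and in replicate 2 they were 18.5, 20.0 and 18.4. The quartiles overlapped widely, 33.6 to 62.9 against 36.2 to 73.1 for promoter peaks. Overlap by the strongest peaks of both replicates was 73.4% for promoter and 62.8% for intergenic peaks. GAGAGAGA was in 9.01% of promoter and 23.8% of intergenic windows, CTGCGTCTC in 14.1% and 21.5%, and the AP-1 element in 4.41% and 5%. Thus the members' 20.0% of GAGAGAGA lay nearer the intergenic share, and their AP-1 share lay slightly under both. No difference between classes was tested.

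**Figure D5:**
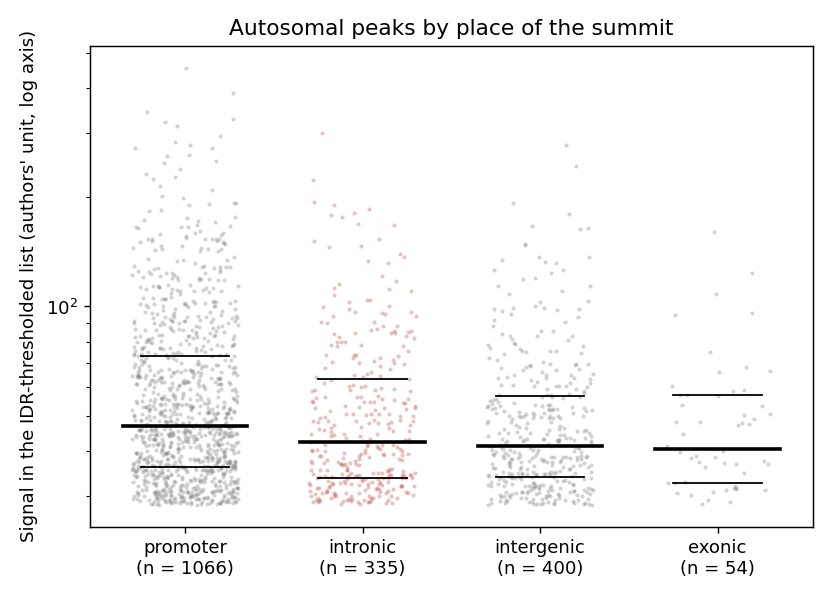
Signal in the IDR-thresholded list (y axis, log axis, authors' unit) of every autosomal peak by class (x axis, points spread sideways at random), with thick lines at the median and thin lines at the quartiles. The members (red, median 42.3) overlap the promoter (46.9) and intergenic (41.2) classes over nearly their whole range.

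Some summits lay near the edge of the promoter window. Just outside it were the members ipla-3 (10 bp, signal 30.6), F32B5.6 (12 bp, 32.3) and hrpk-1 (14 bp, 79.6). Just inside it, and so counted as promoter peaks, were a summit in nstp-10 (10 bp, 29.7), a summit in ain-2 within the window of ptps-1 (28 bp, 30.1) and a summit in fars-1 within that of mrpl-23 (33 bp, 53.9).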

How the data were processed

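The authors deposited peak lists on ce11. Per the deposited notes, each replicate list holds peaks and background as input for IDR, and both replicates share 1 control alignment. The IDR-thresholded list derives from these and a list called on both replicates together. Aligner, caller, IDR cutoff and scaling were not given in the sources used here. For each peak the authors give a signal and a −log10 q-value. The latter is tied among the strongest peaks, so ranks use the signal. No counts are given, so depth is unknown, and no error of a single peak's signal could be computed. No other columns of per-sample values were in the lists (0).

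A member's replicate signal is that of the strongest overlapping peak (1 bp or more). Genes came from Ensembl release 115 (19973 nuclear protein-coding genes) and sequence from the RefSeq copy of WBcel235. Introns were numbered in the transcript with the longest exonic length. Points every 200 bp over admitted introns gave the comparison shares. Everything is descriptive. Wilson intervals cover counting error only. Neighbouring sites and genes are not independent.

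Members, lists and elements were chosen with earlier results of these data known. Named genes are the 25 strongest members and the 5 hosts with most members. To these were added the 5 strongest members with an AP-1 or CRE element, with CTGCGTCTC, with GAGAGAGA, at RNA genes and at later starts, the 4 strongest per gene list, the 3 weakest, the farthest and those at the window edges. Others named (catp-7, nhr-34, let-526, cye-1, inx-11, T26A8.4, psd-1, gsa-1, pbrm-1, ubq-1, rsa-2, frm-7, daf-5, mnk-1 for GAGAGAGA, pqn-42, epg-6 and further hosts of the bZIP, kinase and insulin lists) were chosen after their values were seen. Alternatives covered promoter windows, exons, list depth, overlap rules, motif windows and each replicate alone, with the strongest 2305 peaks of the other replicate. Grid windows with little soft-masking were added after seeing the data. The classification and motif search were tested on simulated data. Python 3.11.15, NumPy 2.4.6, SciPy 1.17.1 and Matplotlib 3.10.9 were used. Sequences are shown for members on chromosomes II to V.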

Additional observations from a re-analysis of the deposited data

How the results depend on the processing

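Of 65 alternative values, 46 stayed within the limits set for a changed value, 18 moved and 1 reversed. The median signal of members minus that of promoter peaks (-4.64) was -5.73 with a promoter window of 500 bp up and 100 bp down, -3.99 with windows at every coding transcript start, -5.36 with exons of any gene class, -0.543 among the stronger 1152 peaks, and from -2.45 to -1.66 with each replicate alone, on the scale of that list. Against promoter peaks the difference stayed negative in every alternative. The 1 value counted as reversed, 1.13, is the difference from intergenic peaks, which is another comparison. The share of hosts with a promoter peak (15.8%) was 11.4% in the narrower window and 8.20% among the stronger 1152. The 7.88% of all genes holds for the full list and the 1000 bp window. No gene share is given for the other settings, so these values have no background beside them. The share at RNA genes (30.4%) was 36.0% with every transcript start, 18.5% with exons of any class and 14.6% with the summit inside the RNA gene. Among the stronger 1152 peaks there were 152 members in 122 hosts, and 96.7% of them were overlapped by the strongest peaks of both replicates. The share in first introns (26.0%) was 52.2% with any transcript. The share with an AP-1 or CRE element (5.37%) was 2.39% in 100 bp windows, 10.1% in 400 bp windows and 3.05% to 6.35% with each replicate alone. The ratio of members to grid windows for GAGAGAGA (15.7) was 9.89 among little-masked windows and 8.93 against flanks, and for CTGCGTCTC (18.1) it was 17.9 and 25.2. A shorter list, another window length and a wider definition change these counts and shares by construction, and other causes were not tested. No paired analysis was possible because the samples form 1 group. Read depth is unknown, so the smallest detectable binding cannot be given.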

Other observations

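The printed windows of Y111B2A.12 and pqn-41 hold a further shared word, CGTGTTCT, which was noticed after the sequences were seen. It was in 6 members (1.79%), among them Y111B2A.12, 2 sites of pqn-41 and daf-5, the worm Sno and Ski family gene, in 0.356% of grid windows and in 0.299% of the windows 500 bp to each side. The median signal of the 6 was 93.8, and 3 of them also held CTGCGTCTC. The windows in which the word was noticed were printed for their high signal, and both hold CTGCGTCTC. The count of 6 members includes these windows, so its share is not an independent comparison with grid and flanking windows. The count, the median signal and the overlap with CTGCGTCTC therefore depend in part on how the word was found.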
